A study of Homo sapiens with 10 samples.

Results

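The genes described here encode the 5 NF-κB subunits or their precursors (RELA, RELB, REL, NFKB1 and NFKB2) and 5 inhibitors or regulators of the pathway (NFKBIA, NFKBIB, NFKBIE, NFKBIZ and TNFAIP3). They were taken by name, as the rows of the deposited human tables whose Ensembl identifier maps to these symbols, and all 10 have a row among the 59204 genes of those tables. The cells were K562, an established line from a chronic myeloid leukaemia. Before any treatment all of them received 30 µM 4-thiouridine, a uridine analogue that is built into new RNA, for 12 h, with the medium exchanged every 3 h. After washing they were moved to medium with 3 mM uridine, which ends the labelling, together with DMSO (the solvent control), 1 µM JQ1 or 1 µM AZ-5576. JQ1 displaces the BET bromodomain proteins from acetylated chromatin, and AZ-5576 inhibits CDK9, the kinase that releases RNA polymerase II from its pause near the promoter. RNA was taken at 0 h, shared by the 3 arms, and at 2, 4 and 8 h of this uridine chase. Each of the 10 conditions is 1 library (n = 1), so no difference below has a replicate check, and p-values measure the scatter of the libraries about a time-course model.

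NF-κB is a family of dimeric transcription factors. RELA, RELB and REL carry the activation domains, while NFKB1 and NFKB2 encode longer precursors from which the DNA-binding partners are cut. In resting cells the IκB proteins, among them the products of NFKBIA, NFKBIB and NFKBIE, hold the dimers in the cytoplasm until IκB kinase marks them for destruction. NFKBIA and TNFAIP3, a ubiquitin-editing enzyme, are themselves NF-κB targets that switch the response off, and NFKBIZ encodes a nuclear IκB protein that acts on chosen target promoters.

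The libraries held between 10293371 and 16008906 human reads in total, between 2031796 and 3868420 labelled reads (those the authors deposited as nascent) and between 1208073 and 2366155 fly reads. RNA of fly S2 cells had been added at 5% to the purified RNA, so a level below, given in fly-scaled reads (reads per 1000000 fly reads), is relative to RNA mass and not to the number of cells. A change in the number of cells, or in the total RNA per cell, therefore does not show on this scale. The AZ-5576 2 h and 0 h libraries stood apart in their fly genes (SD of the log2 deviation from the median library 0.637 and 0.507, against 0.243 to 0.393 in the others). Some fits are also given without them, while every ratio to 0 h rests on the 0 h library. All 9 K562 markers, among them globin and GATA1 genes, were present, with 131863 to 199703 summed reads per library. The 5 marker sets of T cells, B cells, monocytes, fibroblasts and epithelium summed to between 12 and 905 reads each, and 1 epithelial marker was at 0 in every library.

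The sequences printed here were chosen because they bear on 2 features that the members were not selected for. The first is the κB consensus, the DNA motif that NF-κB dimers bind, searched on both strands of the 250 bases before each RefSeq gene start (GRCh38.p14). RefSeq promoter entries were found for 8 of the 10 genes, in 14 entries, and NFKBIE and RELB had none. The motif stood in 9 of these 14 entries, in 7 of the 8 genes (all but RELA), and in 1828 of 35116 promoters (5.21%). The windows of 30 bases below, 1 per gene, hold 1 match or 2 overlapping matches, shown in capitals and read 5′ to 3′ on the strand of the gene.
NFKBIA, chr14:35404811-35404840, minus strand: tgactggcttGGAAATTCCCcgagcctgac
NFKBIB, chr19:38899932-38899961, plus strand: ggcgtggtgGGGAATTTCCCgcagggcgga
NFKBIZ, chr3:101827757-101827786, plus strand: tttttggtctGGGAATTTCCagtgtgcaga
NFKB1, chr4:102501300-102501329, plus strand: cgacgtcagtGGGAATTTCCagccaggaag
REL, chr2:60881518-60881547, plus strand: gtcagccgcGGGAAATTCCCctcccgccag
NFKB2, chr10:102395674-102395703, plus strand: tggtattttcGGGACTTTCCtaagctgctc
TNFAIP3, chr6:137867182-137867211, plus strand: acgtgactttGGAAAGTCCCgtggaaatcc
The capitals end 71 bases before the RefSeq start of NFKBIA, 17 before that of NFKBIB, 213 before NFKBIZ, 39 before NFKB1, 36 before REL, 11 before NFKB2 and 57 before TNFAIP3. The decamer GGGAATTTCC, singled out after the matches were seen, stood on one strand or the other in 5 of the genes (NFKB1, NFKBIA, NFKBIB, NFKBIZ and REL). It was picked because more of these genes held it than any other matching decamer, and 50 of the 35116 promoters (0.142%) held it. The matches are descriptions of the letters in the windows and not measurements of binding.

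The second feature is the AU-rich motif of 3′ untranslated regions, searched on the mRNA strand of GENCODE v29 transcripts (GRCh38). The nonamer TTATTTATT, which contains the pentamer ATTTA, occurred once each in REL and TNFAIP3, and the other 8 genes had no copy. The 29-base windows around it are shown as the only copies in the 10 genes.
REL, chr2:60925006-60925034, plus strand: tgatatataaTTATTTATTttgccctttt
TNFAIP3, chr6:137882298-137882326, plus strand: gtaattcactTTATTTATTttattacaaa
Among untranslated regions within 20% of the same length, 35.3% hold the nonamer at the 9075 bases of REL and 10.1% at the 1993 bases of TNFAIP3. The pentamer occurred 25 times in REL and 5 times in TNFAIP3. NFKBIA had 3 copies in 502 bases, a number reached by 11.1% of regions of like length (32.9% for REL and 41.6% for TNFAIP3). NFKB1 also had 3 copies, in 708 bases (20.8%), NFKBIZ 3 in 1651 bases (55.8%) and NFKB2 1 in 148 bases (21.4%). No copy was found in RELA, RELB, NFKBIB or NFKBIE. Of regions of like length, 32%, 54.7%, 93.8% and 25% in this order also had none, and that of NFKBIB has 54 bases.

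By GENCODE v29 (GRCh38) all 10 are protein-coding genes. The 3 minus-strand genes are RELA at chr11:65653596-65663094, NFKBIA at chr14:35401511-35404749 and NFKBIE at chr6:44258166-44265788. The 7 plus-strand genes are RELB at chr19:45001430-45038198, REL at chr2:60881521-60931610, NFKB1 at chr4:102501329-102617302, NFKB2 at chr10:102394110-102402529, NFKBIB at chr19:38899700-38908893, NFKBIZ at chr3:101827991-101861022 and TNFAIP3 at chr6:137867188-137883312. The libraries read the 3′ end of the mRNA. At REL this end is also covered on the same strand by the noncoding gene AC010733.2, which was not analysed here, and the authors' counting could split such reads. NFKBIB overlaps SIRT2 and TNFAIP3 overlaps the antisense AL357060.1 (1 to 41 reads) on the opposite strand, and the sources used here do not say whether the counting used strand.

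The tests were made for genes with a mean of at least 20 reads over the libraries. For total RNA 9 of the 10 genes passed this limit, and RELB, with 5 to 22 reads, did not. NFKBIZ (0 to 94 reads, mean 27.4) passed only through its JQ1 libraries, since its mean without them was 12.6. Its levels are therefore given with no test, and the counts of calls in total RNA are over the other 8 genes. NFKB2 (9 to 46 reads) passed narrowly. In unlabelled RNA NFKB2 passed only through its DMSO libraries (mean 18.6 without them), and both genes are left out of the counts there. For labelled RNA 6 genes passed, none of them through 1 arm.

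**Figure D1:**
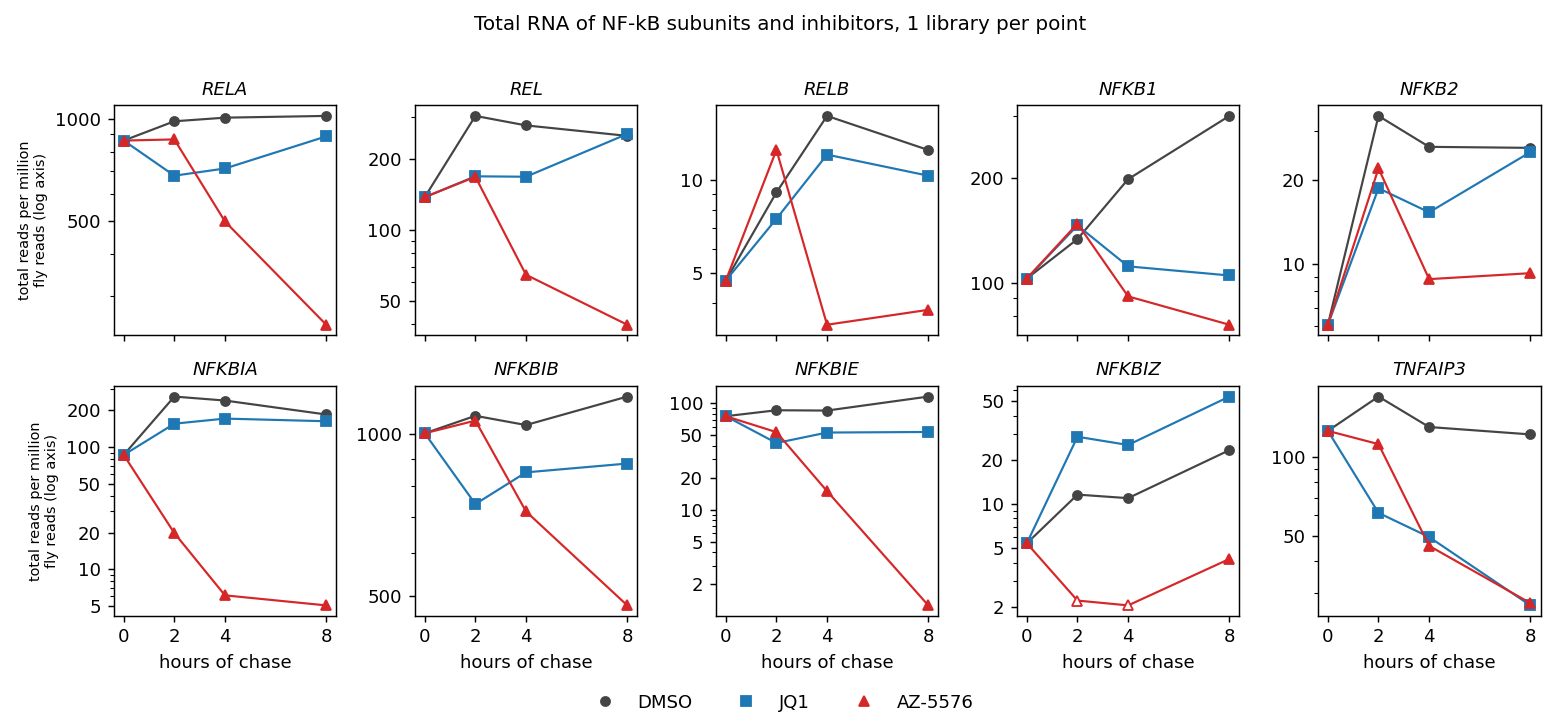
Total RNA of the 10 genes over 0, 2, 4 and 8 h of the chase (x axis, hours), as fly-scaled reads on a log axis with its own range in each panel. Each point is 1 library, grey circles DMSO, blue squares JQ1 and red triangles AZ-5576, and open symbols mark libraries with 0 reads, drawn at the limit of 3 reads. NFKBIA in AZ-5576 lies at 19.83, 6.13 and 5.07, below every other library of that gene, while NFKBIZ in JQ1 lies above DMSO at each time.

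In DMSO several of these RNAs stood well above their 0 h level, so a ratio to DMSO and a ratio to 0 h differ for them. NFKBIA, the fast feedback inhibitor, stood at 86.5 fly-scaled reads at 0 h and at 260, 241 and 185 at 2, 4 and 8 h in DMSO. It was thus above the 0 h library at every time, by a ratio of 3.00 at 2 h (exact 95% interval 2.44 to 3.72), where the median gene stood 0.32 log2 units above 0 h and 1.93% of genes were at or above NFKBIA. At 4 and 8 h that share was 5.04% and 24.2%, with the median gene 0.31 and 0.51 log2 units above 0 h. REL, an activating subunit best known from lymphoid cells, went from 138 to 305, 278 and 251, and the NFKB2 precursor gene from 6.08 (9 reads) to 33.9, 26.3 and 26.1. Both were highest at 2 h. NFKB1, the other precursor gene, stood at 103 at 0 h and at 133, 198 and 301, so its highest library was the last one. RELA, the most studied activating subunit, lay at 862 at 0 h and at 983, 1007 and 1019. NFKBIB lay at 1003 and then at 1081, 1039 and 1174. These 2 genes stayed within a narrow band of levels.

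Of the 8 genes, 7 were above the 0 h library at all 3 times in DMSO, and 60% of the 11797 genes tested were too. TNFAIP3 was the exception, with 126 at 0 h and 171, 131 and 123 after it. By edgeR's quasi-likelihood test on a slope per hour, 1 of the 8, NFKB1, rose (0.15 log2 units per hour, SE 0.04, adjusted p = 0.00567), against 24.5% of all genes called higher and 3.78% lower. With TMM scaling, in which human reads alone set the scale of a library, the shares were 17.1% higher and 15.5% lower. Without the DMSO 8 h library the NFKB1 slope was 0.13 (adjusted p = 0.434). Without the 0 h library, which stands apart in its fly genes, the median slope of all genes was 0.036, against 0.046 with it. For the 9 genes past the limit on reads, NFKBIZ included, the median was 0.047 without it and 0.082 with it. For NFKBIA, whose highest library was the first of the chase, the slope over all hours was 0.14 (adjusted p = 0.182), and without the 8 h libraries it was 0.36 (adjusted p = 0.0114).

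Under the CDK9 inhibitor, NFKBIA had the lowest averaged difference from DMSO of the 8 genes. Its total RNA at 2, 4 and 8 h of AZ-5576 was 19.83, 6.13 and 5.07 fly-scaled reads (27, 9 and 12 reads), against 260, 241 and 185 in DMSO. It stood at 7.63% of DMSO at 2 h (exact 95% interval 4.95% to 11.3%), 2.54% at 4 h (1.15% to 4.88%) and 2.74% at 8 h (1.40% to 4.84%). These intervals, like all intervals on counts and shares here, cover counting error only. Against its own 0 h library NFKBIA was at a ratio of 0.229 by 2 h (0.146 to 0.349). The median gene in the same library was 0.07 log2 units above 0 h. In the model, NFKBIA fell by 4.60 log2 units averaged over the 3 times (SE 0.52, adjusted p = 0.00995, edgeR), and 0.0593% of the genes had a lower value.

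NFKBIZ had 0 reads in the AZ-5576 libraries of 2 and 4 h and 10 reads (4.23 fly-scaled) at 8 h, against 11.6, 10.96 and 23.3 fly-scaled reads in DMSO. With 3 reads as the limit for a count of 0, it was 5.26-fold or more lower than DMSO at 2 h and 5.37-fold or more at 4 h. These 2 values take the 14 and 15 DMSO reads as exact, so they leave out the counting error of DMSO. At 8 h NFKBIZ was at 18.2% of DMSO (8.12% to 36.9%). These ratios rest on few reads. NFKBIE, an IκB protein that holds REL and RELA dimers, stood at 53.6, 15.0 and 1.27 (3 reads at 8 h), against 86.1, 85.5 and 116 in DMSO. It was at 62.3%, 17.5% and 1.10% of DMSO at the 3 times (0.224% to 3.25% at 8 h), a distance that widened with the hours. Its averaged difference was −2.45 (SE 0.87, adjusted p = 0.0726).

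The activating subunits were lower mainly at the later times. REL lay at 168, 64.7 and 39.7 in AZ-5576, which is 55.2%, 23.3% and 15.9% of DMSO (12.6% to 19.8% at 8 h). RELA lay at 869, 499 and 248, or 88.5%, 49.5% and 24.3% of DMSO (22.1% to 26.7% at 8 h). For both, each AZ-5576 library was below each DMSO library. NFKB1 was at 111% of DMSO at 2 h and at 46.1% and 25.1% at 4 and 8 h, and NFKB2 at 64.9%, 33.7% and 35.6%. TNFAIP3 was at 65.6%, 34.9% and 22.4% of DMSO, with levels of 112, 45.6 and 27.5. NFKBIB, a further cytoplasmic IκB protein, was the least lowered, at 98.0%, 69.1% and 40.8% of DMSO. RELB, with 17, 5 and 9 reads in AZ-5576 against 11, 22 and 22 in DMSO, was too low to compare with any precision.

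In all, 1 of the 8 genes, NFKBIA, passed the threshold as lower, against 2.38% of all 11797 genes (0.0848% higher), and none passed as higher. Among all genes without the 414 that 1 arm alone carried over the limit, 2.23% were called lower and 0.0176% higher. The median difference of the 8 was −1.30, and that of all genes −0.82. The averaged differences of the other 7 were −1.75 for REL (adjusted p = 0.056), −1.41 for TNFAIP3 (0.0571), −1.18 for NFKB2 (0.0852), −1.04 for NFKB1 (0.101), −0.99 for RELA (0.0862) and −0.58 for NFKBIB (0.15), beside NFKBIE above. This fit has a single difference per arm, and one that widens with time adds to its scatter. With a slope per arm in its place all 8 were called lower, against 73.3% of genes. DESeq2 called 6 of 8 (35.3% of genes), a fit of the 2 arms alone 3 of 8 (14.7%) and TMM scaling 1 of 8 (2.32%). TMM moved the median of all genes from −0.82 to −0.08 and the NFKBIB difference to 0.155 (adjusted p = 0.452). At all 3 times 7 of the 8 genes were below DMSO, as were 66.5% of all genes, and NFKB1 was the exception.

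Single libraries decided this call. For NFKBIA the difference was −4.47 without DMSO 4 h (adjusted p = 0.0852), −4.58 without DMSO 8 h (0.0866) and −4.33 without AZ-5576 4 h (0.108), while without AZ-5576 2 h, the library that stands apart in its fly genes, it remained under the threshold. Without AZ-5576 2 h, 7 further adjusted p-values came under the threshold, with differences of −1.51 for RELA, −2.44 for REL, −1.37 for NFKB1, −1.61 for NFKB2, −0.94 for NFKBIB, −3.92 for NFKBIE and −1.80 for TNFAIP3. The number of all genes called was 291 with every library and ran from 1 to 6842 when 1 library was left out.

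**Figure D2:**
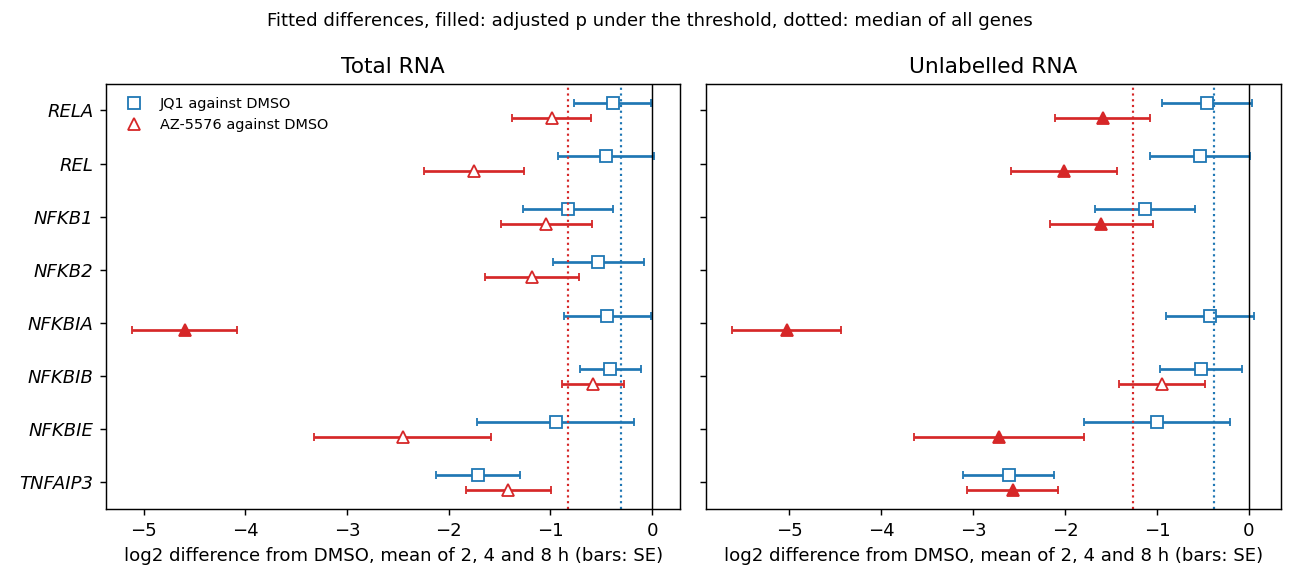
Fitted log2 differences from DMSO, averaged over 2, 4 and 8 h, for the 8 genes counted in total RNA (left) and the 7 counted in unlabelled RNA (right, where NFKB2 has no symbol). Blue squares are JQ1, red triangles AZ-5576, bars are SE, filled symbols have an adjusted p under 0.05, and dotted lines give the median of all genes for each inhibitor. NFKBIA at −4.60 is the filled symbol for total RNA, and TNFAIP3 has the lowest JQ1 symbol there (−1.71, against −1.41 in AZ-5576).

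JQ1 gave another order of the same genes. TNFAIP3 was lowest, at 61.1, 49.3 and 26.9 fly-scaled reads against 171, 131 and 123 in DMSO. This was 35.7% of DMSO at 2 h (27.8% to 45.6%), 37.7% at 4 h (28.9% to 48.9%) and 22.0% at 8 h (15.7% to 30.2%). Its averaged difference was −1.71 (SE 0.42, unadjusted p = 0.00183, adjusted p = 0.508, edgeR), and 0.797% of genes had a lower value. NFKBIZ lay in the other direction, at 28.7, 25.2 and 53.8 against 11.6, 10.96 and 23.3. It was at 248%, 230% and 232% of DMSO (159% to 343% at 8 h), from 46, 46 and 94 reads in JQ1 against 14, 15 and 41. NFKBIZ reached the limit on reads only through these JQ1 libraries.

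NFKBIA was at 60.0%, 71.1% and 88.0% of DMSO in JQ1, with levels of 156, 172 and 163. NFKBIE was at 49.3%, 62.2% and 46.5%. REL stood at 55.5% and 60.6% of DMSO at 2 and 4 h and at 102% at 8 h. RELA stood at 69.2%, 70.9% and 87.1%, a course in which the first library was the lowest. NFKB1 went the other way, at 110%, 56.2% and 34.8% of DMSO, with levels of 146, 111 and 105 in JQ1. NFKBIB was at 68.5%, 81.7% and 75.0%, and NFKB2 at 55.1%, 58.3% and 96.6% with 28 to 44 reads.

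By edgeR none of the 8 genes passed the threshold for JQ1, and none of the 11797 genes did (percent called 0 in each direction), although 1081 genes had an unadjusted p under 0.05. The median difference was −0.49 for the 8 and −0.31 for all genes. Beside TNFAIP3 the differences ran from −0.95 for NFKBIE (adjusted p = 0.661) and −0.83 for NFKB1 (0.556) to −0.39 for RELA (0.701). A fit of the 0 h library and the DMSO and JQ1 arms alone called 4 lower, TNFAIP3 (adjusted p = 0.00545), NFKBIE, NFKBIB and RELA, against 20.9% of genes, and none higher, against 1.64%. With slopes TNFAIP3 and NFKB1 were called lower (16.2% of genes), and DESeq2 called TNFAIP3 alone (0.398%). At all 3 times 6 of the 8 were below DMSO, as were 55% of genes, and none was above, against 5.75%.

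The inhibitors were compared at the same dose and times. NFKBIA was at 12.7% of its JQ1 level at 2 h (8.22% to 18.96%), 3.57% at 4 h (1.62% to 6.87%) and 3.11% at 8 h (1.59% to 5.51%) in AZ-5576. In the model its difference was −4.16 log2 units (SE 0.51, adjusted p = 0.00721, edgeR). NFKBIZ was 13.0-fold or more lower than in JQ1 at 2 h and 12.3-fold or more at 4 h, with the JQ1 reads taken as exact. At 8 h it stood at 7.85% (3.65% to 15.1%). NFKBIA was the 1 of 8 genes that passed, against 1.17% of genes. DESeq2 called 2 of 8 (10.2% of genes), slopes 5 of 8 (55%) and a fit of these arms and 0 h 1 of 8 (0.136%). Averaged over the times, TNFAIP3 did not differ beyond its error between the inhibitors (0.30, SE 0.41, adjusted p = 0.69), with AZ-5576 at 184% of JQ1 at 2 h (142% to 240%), 92.5% at 4 h (66.4% to 128%) and 102% at 8 h (69.1% to 152%). Without AZ-5576 2 h its difference was −0.11 (adjusted p = 0.876), and without all 2 h libraries −0.05 (0.966). Without AZ-5576 4 h the adjusted p was 0.0932 for NFKBIA, and without all 4 h libraries 0.0834.

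The labelled reads were used to follow RNA made before the chase. Label built into RNA after the wash-out was not tested, and the fits would count it with the rest. In DMSO all 6 genes that could be tested lost label over the hours, as 88.3% of the 8817 genes tested did, with a median half-life of 4.49 h over all genes. The half-life is the inverse of the fitted slope in log2 units per hour and describes label relative to RNA mass. Of the 6, REL was the fastest, with 64.9, 57.9, 19.7 and 1.13 labelled fly-scaled reads at 0, 2, 4 and 8 h (2 reads at 8 h). Its half-life was 1.66 h (slope −0.60, SE 0.08, adjusted p = 2.13e-12), and 1.53% of genes had a steeper loss. NFKBIA held 56.8, 64.6, 21.2 and 2.27, with a half-life of 2.03 h over a course that was not a straight line, since its 2 h library was above 0 h. TNFAIP3 held 93.3, 60.4, 27.8 and 10.2, a half-life of 2.42 h.

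RELA came next with a half-life of 2.81 h, from 464 to 449, 216 and 72.6. NFKB1 had 3.84 h and NFKBIB 7.84 h, the slowest of the 6 (514, 576, 436 and 273), and 78.8% of genes had a steeper loss than NFKBIB. Adjusted p-values for the 6 ran from 8.74e-18 for RELA to 0.000282 for NFKBIB. REL, NFKBIA and TNFAIP3 thus had the 3 shortest half-lives of the 6. With a limit of 1 read in place of 20, NFKBIZ (−0.75, SE 0.33, adjusted p = 0.0349) and NFKBIE (−0.72, SE 0.17, adjusted p = 5.97e-05) had steeper slopes than REL (−0.60), from at most 8 and 22 labelled reads in a library of 0 h or DMSO. Without the DMSO 8 h library the slope of NFKBIA was −0.25 (adjusted p = 0.159) and that of NFKBIB −0.075 (0.344). Without the 0 h library the median slope of the 6 was −0.400, against −0.384 with it, and that of all genes −0.246, against −0.223. With TMM scaling 26.3% of genes were called as lost and 22.9% as gained, the NFKB1 slope was −0.05 (adjusted p = 0.39) and that of NFKBIB turned to 0.085 (0.000446).

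Under AZ-5576 the labelled NFKBIA was at 9.55 and 2.72 at 2 and 4 h (13 and 4 reads) and at 0 reads at 8 h, below DMSO at each time. At 2 h it stood at 14.8% of DMSO (7.54% to 26.8%) and at 4 h at 12.8% (3.28% to 36.6%), while 0 reads against 4 at 8 h was not a detectable difference at this depth. Its slope differed from that in DMSO by −0.78 log2 units per hour (SE 0.15, adjusted p = 0.000125, edgeR), the lowest value among the 8817 genes, and its fitted half-life was 0.79 h against 2.03 h. NFKBIA was the 1 of 6 members with a steeper loss than in DMSO, against 1.22% of genes, and no member had a shallower one, against 3.53%. With TMM scaling these shares were 3.75% and 2.68%. The call held without each single library of the 2 arms or 0 h, with adjusted p from 3.49e-05 to 0.00788, and DESeq2 gave an unadjusted p of 1.06e-05 with no adjusted value. The AZ-5576 slope rests on the 13, 4 and 0 labelled reads of its 3 libraries. Whether label built in after the wash-out adds to the difference between the arms was not tested.

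REL, RELA, NFKB1 and TNFAIP3 showed the other sign, with slopes 0.11, 0.09, 0.09 and 0.07 above those in DMSO (adjusted p from 0.149 to 0.623, edgeR). The median of all genes was 0.03 and NFKBIB was at −0.001. RELA had 482, 264 and 130 labelled fly-scaled reads in AZ-5576 against 449, 216 and 72.6 in DMSO. Its slope was 0.09 above that in DMSO (SE 0.04, adjusted p = 0.149), and without 1 library it ran from 0.04 without DMSO 8 h (adjusted p = 1.0) to 0.11 without AZ-5576 8 h (0.771). Without 0 h or without DMSO 2 h the adjusted p was 0.0423 or 0.0417. In AZ-5576 the half-lives were 2.04 h for REL, 2.92 h for TNFAIP3, 3.82 h for RELA, 5.75 h for NFKB1 and 7.76 h for NFKBIB, and all 6 members lost label, as 85.1% of all genes did. In JQ1, where all 6 and 90.8% of genes lost label, the half-lives were 1.94 h for NFKBIA, 2.26 h for REL, 2.39 h for TNFAIP3, 3.00 h for RELA, 3.74 h for NFKB1 and 6.47 h for NFKBIB. No member's slope in JQ1 differed from DMSO past the threshold, where 0.352% of genes were called steeper and 0.318% shallower (0.386% and 0.646% with TMM), and 657 genes had an unadjusted p under 0.05. DESeq2 also called 0 of the 6 (0.227% and 0.193% of genes).

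**Figure D3:**
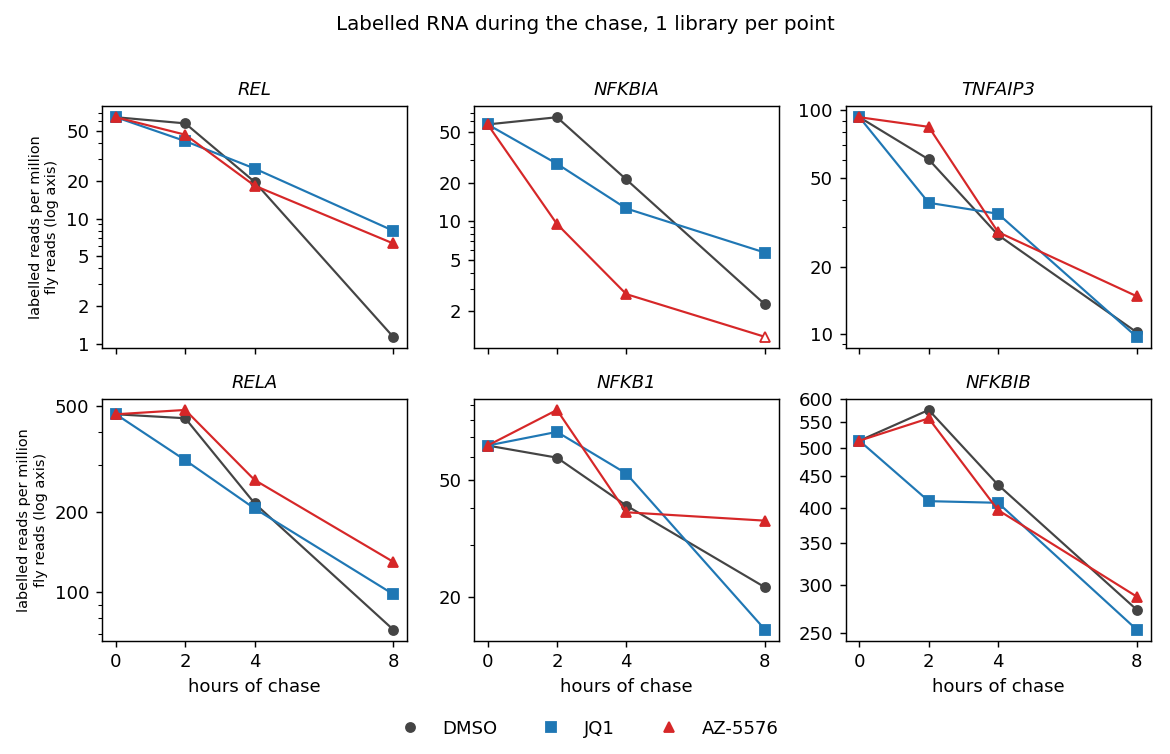
Labelled fly-scaled reads (log axis, own range in each panel) against hours of chase for the 6 genes with enough labelled reads, 1 library per point, with DMSO as grey circles, JQ1 as blue squares and AZ-5576 as red triangles. The open symbol is the AZ-5576 8 h library of NFKBIA, with 0 reads, drawn at the limit of 3 reads. NFKBIA in AZ-5576 lies below both other arms at each time, while RELA and TNFAIP3 in AZ-5576 lie above DMSO.

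The labelled share, that is labelled reads as a part of all reads of a gene, needs no fly scale. TNFAIP3 began with the highest share of the 5 genes that had at least 20 reads in every library, 73.8% at 0 h (exact 95% interval 66.9% to 79.9%). In DMSO it went to 35.3%, 21.2% and 8.33%. In JQ1 it was 63.3%, 70.0% and 36.2% (22.7% to 51.5% at 8 h), and in AZ-5576 75.2%, 62.7% and 53.9% (41.0% to 66.3%). The intervals of each inhibitor lay above those of DMSO at all 3 times. For the median gene the DMSO shares were 39.95%, 23.1% and 9.88%, those of JQ1 41.6%, 28.9% and 12.2% and those of AZ-5576 47.3%, 44.4% and 41.5%.

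RELA held 53.8% label at 0 h and 55.5%, 52.9% and 52.6% in AZ-5576, almost level, against 45.7%, 21.4% and 7.12% in DMSO and 46.0%, 28.9% and 11.1% in JQ1. NFKB1 held 63.8% at 0 h. Its AZ-5576 libraries kept 58.7%, 42.5% and 48.0%, its JQ1 libraries 50.0%, 47.3% and 14.8%, and its DMSO libraries 44.7%, 20.7% and 7.16%. REL held 47.1% at 0 h and had the lowest shares at 8 h, 0.453% with DMSO, 3.14% with JQ1 and 16.0% with AZ-5576 (9.22% to 24.9%). NFKBIB held 51.2% at 0 h and 59.9% at 8 h in AZ-5576, against 23.3% in DMSO and 28.8% in JQ1. Of these 5 genes, 4 had a share above DMSO at all 3 times in AZ-5576 (72.2% of 9735 genes did) and 5 in JQ1 (36.6%). The exception was NFKBIB, at 52.7% in AZ-5576 and 53.3% in DMSO at 2 h. NFKBIA was left out of the 5 only through AZ-5576, with 9 reads at 4 h and 12 at 8 h. Its shares were 18.0%, 7.35% and 3.51% in JQ1 against 24.8%, 8.79% and 1.22% in DMSO, so below DMSO at 2 and 4 h. NFKBIE, left out with 3 reads at 8 h of AZ-5576, had 19.1%, 14.4% and 1.06% in JQ1 against 21.2%, 4.27% and 0% in DMSO.

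**Figure D4:**
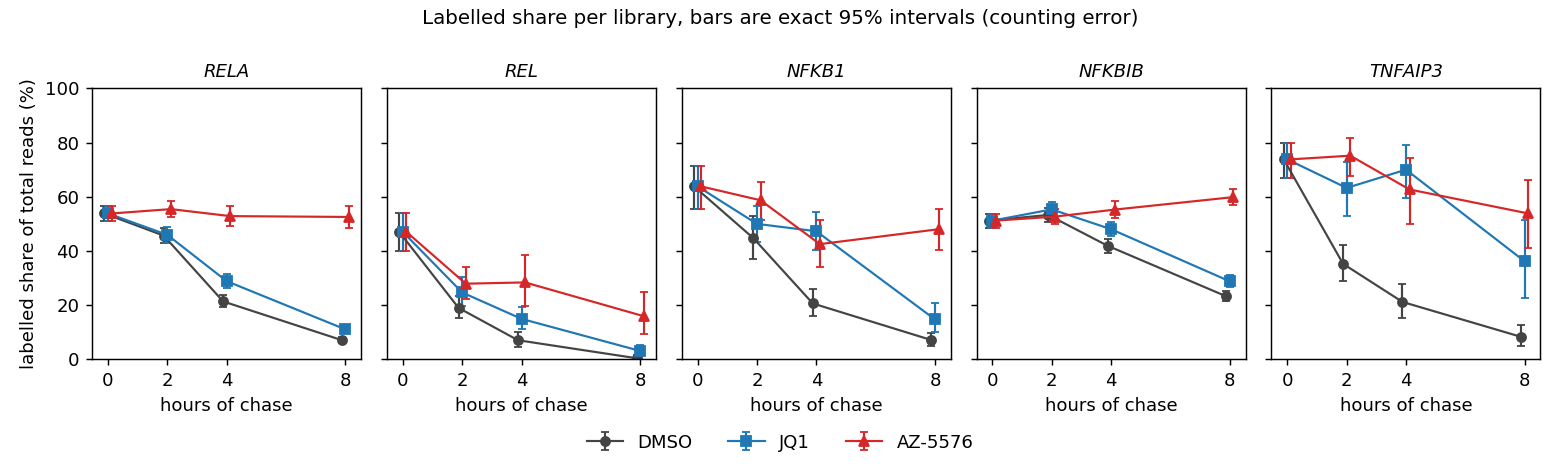
Labelled share of total reads (%) against hours of chase for the 5 genes with at least 20 reads in every library, 1 library per point, with DMSO as grey circles, JQ1 as blue squares and AZ-5576 as red triangles, slightly offset. Bars are exact 95% intervals (counting error only). RELA stays between 52.6% and 55.5% in AZ-5576 and drops to 7.12% in DMSO, and in TNFAIP3 both inhibitors lie above DMSO.

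The unlabelled reads, total less labelled, can hold RNA made after the wash-out together with older RNA and labelled molecules with no converted base in the read. Their source could not be separated further. Unlabelled NFKBIA was 29.7 fly-scaled reads at 0 h. It stood at 195, 220 and 183 with DMSO, at 128, 159 and 158 with JQ1, and at 10.3, 3.41 and 5.07 with AZ-5576. The AZ-5576 libraries were thus below 0 h and the other libraries above it. Unlabelled NFKBIA fell by 5.03 log2 units against DMSO (SE 0.59, adjusted p = 0.00387, edgeR).

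Unlabelled TNFAIP3 was 33.1 at 0 h and 111, 103 and 112 in DMSO, but 22.5, 14.8 and 17.2 under JQ1 and 27.9, 17.0 and 12.7 under AZ-5576. Both inhibitor arms were below 0 h at every time, and at 8 h JQ1 stood at 15.3% of DMSO (10.1% to 22.5%) and AZ-5576 at 11.3% (7.42% to 16.6%). Unlabelled TNFAIP3 fell by 2.57 in AZ-5576 (SE 0.50, adjusted p = 0.0143). The difference in JQ1 was −2.61 (SE 0.50, unadjusted p = 0.000198), with 0.127% of genes lower, but its adjusted p was 0.448. In a fit of the 2 arms and 0 h it was −2.60 (adjusted p = 0.00106), and DESeq2 gave −2.62 (adjusted p = 0.000223).

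In AZ-5576, 6 of 7 members fell in unlabelled RNA, against 40.8% of the 11066 genes tested (0.244% higher). Beside NFKBIA and TNFAIP3 these were NFKBIE at −2.71 (adjusted p = 0.0388), REL at −2.01 (0.0253), NFKB1 at −1.61 (0.0415) and RELA at −1.59 (0.0343). NFKBIB at −0.95 (0.106) did not pass. The median was −2.01 for the 7 and −1.27 for all genes. With TMM scaling 3 of 7 passed, NFKBIA, TNFAIP3 and REL, against 14.8% of genes lower and 12.6% higher. DESeq2 called 6 of 7 (56.4% of genes) and slopes 7 of 7 (80.3%). All 6 calls went above the threshold without AZ-5576 4 h (adjusted p from 0.0528 for NFKBIA to 0.154 for NFKBIE). All but NFKBIA also did so without DMSO 4 h (0.0953 to 0.163) and without DMSO 8 h (0.0859 to 0.202). Without all 4 h libraries every call but that of NFKBIA was lost too (0.219 for TNFAIP3 to 0.34 for NFKB1). The NFKB1 call was also lost in a fit of these arms and 0 h (0.104) and without the 8 h libraries (0.0932).

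For JQ1 no member and no other gene passed in unlabelled RNA (percent called 0 in each direction, with 856 genes at an unadjusted p under 0.05). DESeq2 called TNFAIP3 alone of the members, against 0.524% of genes lower. Unlabelled NFKBIZ, not tested, lay at 11.6, 10.2 and 23.2 fly-scaled reads with DMSO and at 26.2, 21.4 and 53.3 with JQ1. The NFKBIA difference was −0.42 (SE 0.48, adjusted p = 0.768). A fit of the DMSO and JQ1 arms and 0 h called 5 of the 7 members lower (26.9% of genes) and none higher (2.04%).

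Around these genes the pathway was described with 5 lists, again without genes that reached the limit on reads through 1 arm. The comparisons share their DMSO libraries. Of the kinases and adaptors that carry the signal to IκB kinase, 24 of 28 could be tested, and none passed in total RNA under AZ-5576 (median −1.16, all genes −0.82). CHUK, a catalytic subunit of IκB kinase, was at −1.94 (SE 0.49, adjusted p = 0.0536) and the ubiquitin ligase TRAF6 at −2.003 (SE 0.71, adjusted p = 0.0719). Both came under the threshold without AZ-5576 2 h (0.00322 and 0.00161). Of all genes 2.38% were called lower. With slopes all 24 were called lower, against 73.3% of genes. In unlabelled RNA 15 of 23 fell, against 40.8% of all genes (median −1.92, all genes −1.27), among them the adaptor BCL10 at −2.91 (adjusted p = 0.0155) and CHUK at −2.90 (0.0199). None of the 16 ubiquitin ligases and deubiquitinases passed in total RNA (median −0.86), with BTRC, which recognises phosphorylated IκB, at −1.71 (SE 0.46, adjusted p = 0.0552, and 0.00207 without AZ-5576 2 h). In unlabelled RNA 4 of the 16 fell, a smaller share than the 40.8% of all genes, with BTRC at −2.11 (adjusted p = 0.0247). The unlabelled calls of BCL10, CHUK and BTRC were lost without DMSO 4 h, DMSO 8 h or AZ-5576 4 h (adjusted p 0.0859 to 0.126). They were lost without all 4 h libraries too (0.154 to 0.295).

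Of the other inhibitors and nuclear cofactors, 2 of 9 fell in total RNA under AZ-5576, against 2.38% of all genes (median −1.53). ZC3H12A, an RNase that degrades inflammatory mRNAs, stood at 79.7 fly-scaled reads at 0 h, at 169, 197 and 206 in DMSO and at 31.6, 15.0 and 8.45 in AZ-5576. It fell by 3.51 log2 units (SE 0.49, adjusted p = 0.0134). The other was SOCS1, a feedback inhibitor of cytokine signalling named after its values were seen, with 0, 0 and 1 read in AZ-5576 and 23, 72 and 179 reads in DMSO (adjusted p = 0.00391). Of 7 receptors tested 1 fell (2.38% of all genes), TNFRSF12A, also named after its values were seen, from 38.1, 70.2 and 81.7 in DMSO to 4.41, 4.09 and 0 in AZ-5576 (−4.55, SE 0.86, adjusted p = 0.0375). In unlabelled RNA 6 of 9 inhibitors and 5 of 7 receptors fell, against 40.8% of all genes, among the receptors TNFRSF1A at −3.01 (adjusted p = 0.0359, and 0.134 to 0.141 without DMSO 4 h, DMSO 8 h or AZ-5576 4 h). Without all 4 h libraries the adjusted p of TNFRSF1A was 0.238.

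Of 34 known NF-κB target genes listed, 16 could be tested in total RNA, 3 of them only through 1 arm. Of the other 13, 1 fell under AZ-5576, against 2.38% of all genes (median −1.18), and in unlabelled RNA 8 of 12 fell, against 40.8% (median −1.66). IER3, a short-lived stress response gene, stood at 203 at 0 h, at 483, 600 and 696 in DMSO and at 80.1, 30.0 and 24.9 in AZ-5576, and fell by 3.76 log2 units (SE 0.55, adjusted p = 0.0163). Its labelled reads fell faster than in DMSO, by −0.42 log2 units per hour (SE 0.10, adjusted p = 0.00123, edgeR). IER3 was the 1 of 12 targets with this call, against 1.22% of all genes. GADD45B, a stress sensor, was 1 of the 3 targets set aside, with a mean of 19.9 reads without JQ1, and has no test here. It stood at 236, 264 and 208 in JQ1, at 26.5, 10.96 and 35.7 in DMSO and at 4.41, 4.09 and 4.23 in AZ-5576 (6, 6 and 10 reads). The calls of ZC3H12A, TNFRSF12A and IER3 in total RNA were lost without DMSO 4 h, DMSO 8 h or AZ-5576 4 h (adjusted p 0.132 to 0.242), and that of SOCS1 was not. Without all 4 h libraries the calls of ZC3H12A, TNFRSF12A and IER3 were lost too (0.14 to 0.175). The slope call of IER3 was lost without DMSO 8 h (0.216) and without AZ-5576 8 h (0.0753). It was also lost without all 4 h (0.0756) or all 8 h libraries (0.488).

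No gene of the 5 lists passed for JQ1 in total RNA. The medians were −0.38 for kinases and adaptors, −0.33 for the ubiquitin enzymes, −0.29 for the other inhibitors, −1.02 for receptors and −0.53 for targets, against −0.31 for all genes. Among the list genes that the naming rule gave, the lowest were −1.62 for the receptor gene TNFRSF1A (SE 0.78, adjusted p = 0.538), −1.52 for the death receptor gene TNFRSF10A (SE 0.49, 0.508) and −1.42 for TRIB3 (SE 0.41, 0.508). In a fit of the DMSO and JQ1 arms and 0 h these 3 had adjusted p of 0.00545, 0.00781 and 0.0133.

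The genes whose total RNA was most like that of NFKBIA over the 10 libraries were ZC3H12A (Pearson's r 0.985), the zinc finger gene ZNF296 (0.98), IER3 (0.979) and CSRNP1 (0.976), of 8202 genes with a mean of at least 100 reads, whose median r was 0.705. For NFKB2 they were RALGAPA1 (0.915), PHC3 (0.911), SMAP1 (0.907), HAUS2 (0.905) and ILKAP (0.904), with a median r of 0.579 over 8203 genes. All r use log2 fly-scaled levels and therefore share each library's fly total, and they are descriptions of 10 libraries.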

How the data were processed

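The authors deposited 3 tables of read counts per gene for 10 libraries of 3′ end sequencing after iodoacetamide treatment, which turns 4-thiouridine into a base read as C: all human reads (total), reads with label (nascent) and reads of the added fly RNA. The tools named are Trim Galore 0.6.5, bedtools and bcl2fastq 2.17.1.14 with the builds hg38 and dm6, per the submitters' processing notes. The sources used here give no aligner, counting tool, annotation or rule for calling a read labelled. Unlabelled counts were total less nascent.

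Counts were fitted with edgeR 4.0.16 (quasi-likelihood test, R 4.3.3, limma 3.58.1) with fly totals as library sizes, for genes averaging at least 20 reads. Total and unlabelled RNA had a level per time and a difference per inhibitor. Labelled RNA, and the change in DMSO, had a common 0 h level and a slope per arm. Every adjusted p is from these edgeR fits, or from DESeq2 1.42.0 where named, with Benjamini-Hochberg adjustment over all genes tested and a threshold of 0.05. Because nothing says that libraries came from separate cultures, the scatter behind them may be technical. Ratios between libraries carry exact 95% intervals from the counts, labelled shares exact (Clopper-Pearson) ones, with 3 reads as the limit for a count of 0. Likeness used log2 values with a pseudocount of 0.5 reads. The 5 genes most like NFKBIA and NFKB2 were to be named, and 1 of those for NFKBIA is not reported here. The fits of total and labelled RNA were also run on simulated counts. There total RNA had less scatter than in these libraries and no change with time. How the total RNA fit performs at the real scatter was not tested. Python 3.11.15, pandas 2.3.3, scipy 1.17.1 and matplotlib 3.10.9 were used.

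The members, lists, tests and alternatives were chosen with earlier results of these data known. All 10 members are named. After the values were seen, genes whose mean fell under 20 reads without the libraries of 1 arm were given no test and left out of counts of members and lists. From each list, genes were drawn from up to 4 past the threshold with the largest difference, or from 2 where none passed. They had a mean count of at least 100, except SOCS1 and TNFRSF12A. Not every gene that this rule gave is named. Alternatives were TMM scaling, DESeq2, mean counts of at least 1 or 100, slopes, fits of the arms compared, single times and single libraries left out, and all human reads as the scale of ratios.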

Additional observations from a re-analysis of the deposited data

How the results depend on the processing

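With 1 library per condition, the number of genes called depends strongly on the model and on single libraries. In total RNA, AZ-5576 against DMSO gave 291 genes, with 4192 by DESeq2, 2186 at a mean count of at least 1, 31 at 100, 8709 with slopes, 1760 with the 2 arms alone, 5716, 6 and 1458 without the 2, 4 and 8 h libraries, and 1 to 6842 without a single library. JQ1 against DMSO gave 0, with 4 by TMM, 71 by DESeq2, 4 at a mean count of at least 1, 2126 with slopes, 2657 with the 2 arms, 225, 1 and 19 without each time, and 0 without each single library. AZ-5576 against JQ1 gave 140, with 608 by TMM, 1212 by DESeq2, 484 and 36 at mean counts of 1 and 100, 6590 with slopes, 16 with the 2 arms, 3045, 23 and 347 without each time, and 7 to 3746 without a single library. The change in DMSO gave 3333, with 873 without 8 h and 471 to 3071 without a single library (446 lower and 2887 higher, against 1823 and 2012 by TMM). The labelled loss in DMSO gave 7791, with 4336 by TMM (2316 lower and 2020 higher, against 7787 and 4), 4285 at a mean count of 100, 1236 without 8 h, and 3360 to 8107. The AZ-5576 slope difference gave 419 (108 lower, 311 higher, against 331 and 236 by TMM), with 279 by DESeq2, 35 and 15 without 4 and 8 h, and 28 to 768. The JQ1 slope difference gave 59 (31 lower, 28 higher), with 91 by TMM (34 and 57), 37 by DESeq2, 34 at a mean count of 100, 7 and 2 without 4 and 8 h, and 10 to 87. Unlabelled RNA gave 4546 for AZ-5576, with 3028 by TMM (1638 lower and 1390 higher, against 4519 and 27), 8926 with slopes, 7321 and 87 without 2 and 4 h, and 10 to 8011. For JQ1 it gave 0, with 4 by TMM, 83 by DESeq2, 1557 with slopes, 3208 with the 2 arms, 184, 1 and 125 without each time, and 0 to 1. The causes were not tested. Of all 10 members, RELB and NFKBIZ with few reads among them, 7 were below DMSO at every time in JQ1. With all human reads as the scale there were 4. On the fly scale 55% of the 11797 genes tested were below too, and on the human scale that share was not computed. Leaving out genes that 1 arm alone carried over the limit on reads, chosen after seeing the data, gave 256, 0, 113, 3251, 7673, 402, 56, 4265 and 0 genes in the order above. Against 758 values of single genes that kept direction and side of the threshold, 104 came under it, 95 went over it, 18 ratios moved beyond their interval and 5 changed sign. The 5 were NFKBIB by TMM in total (0.155), labelled (0.085) and unlabelled RNA (0.174), and TNFAIP3 between the inhibitors without 2 h (−0.052) or AZ-5576 2 h (−0.109, within a range of −0.109 to 0.539 over single libraries left out). RELB at 5 to 22 reads, NFKBIZ, NFKB2 and labelled NFKBIA in AZ-5576 are limited by depth. The fits of total and unlabelled RNA match the arms by time, and the labels carry no replicate numbers.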
